A study of Mus musculus with 48 samples.

Results

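Acot10 (ENSMUSG00000047565.4) was represented by 9 of the 48715 adenosines listed in every library of a survey of A-to-I editing in adult mouse tissues, and by 6 of the 7339 adenosines with over 100 reads in at least 1 library. The 9 positions were taken by gene name. The gene itself was selected on its measured editing levels in spleen, where 2 of its positions were higher in the editing-deficient mice while most changed sites were lower, so the spleen difference between genotypes is described here and not used as evidence. All mice were male C57BL/6 animals of 12 weeks that lacked Ifih1 (Ifih1-/-), the gene of the cytoplasmic double-stranded RNA sensor MDA5. The controls were Adar1+/+ Ifih1-/- (WT) and the mutants Adar1E861A/E861A Ifih1-/- (E861A), a germline substitution that removes the editing activity of ADAR1 in every cell. The tissues were heart, kidney, liver, small intestine and whole brain, and the hematopoietic organs bone marrow (BM), spleen and thymus, each sampled in 3 biological replicates per genotype, 48 libraries in all, and whether organs of 1 animal were used for several tissues is not stated. Editing was read by mmPCR-seq, in which chosen loci are amplified from cDNA in multiplexed microfluidic reactions and the bases at known sites are counted by sequencing.

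ADAR enzymes deaminate adenosine to inosine in double-stranded RNA, and sequencers read inosine as G, so the share of reads with G at a genomic A is taken as the editing level. A G that stands in the DNA of a near-identical gene is read in the same way. Acot9 and Acot10 encode acyl-CoA thioesterases of mitochondria, enzymes that split fatty acyl-CoA into free fatty acid and CoA. Acot10 is an intronless copy of Acot9, the kind of copy that arises when a spliced messenger RNA is reverse transcribed and inserted into the genome.

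In the mouse genome build NCBIM37 (mm9), Acot10 is a single exon on the minus strand of chromosome 15, from base 20594974 to 20596505. Acot9 (ENSMUSG00000025287.9) lies on the plus strand of the X chromosome, from 151696986 to 151732197, and has 15 exons. The coding sequences, of 1320 bases each, were 97.2% identical and differed at 37 bases. At 12 of the 402 adenosines of the Acot10 coding sequence, Acot9 carries G, and 2 of these 12 are among the 9 listed positions. They are chr15:20595389 (coding base 1020, a synonymous valine codon), which aligned with base 151730895 of the X chromosome in exon 13 of Acot9, and chr15:20595218 (coding base 1191, a synonymous serine codon), which aligned with base 151731234 in exon 14. In Acot9 an intron, from 151730956 to 151731123, separates them, whereas in Acot10 both lie in one exon. The bases around both positions are shown because the genes differ there at the counted base alone. The counted base is the capital, each run is 29 bases long and reads 5′ to 3′ on the coding strand, and the Acot10 windows are chr15:20595375-20595403 and chr15:20595204-20595232.
Acot10 at 20595389: tatgtggtaacagtAgatgatatcatgtt
Acot9 at the same codon: tatgtggtaacagtGgatgatatcatgtt
Acot10 at 20595218: tttacattcatgtcAgaaaaagaagtacc
Acot9 at the same codon: tttacattcatgtcGgaaaaagaagtacc

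At the other 7 positions Acot9 carries A as well. For comparison, the windows of 20595244 (asparagine to aspartate if edited) and 20595250 (threonine to alanine if edited) were identical in both genes over all 29 bases, so that reads of either gene would give the same base there.
Acot10 and Acot9 at 20595244: agcatatgaccaccAatgtctttcatttt
Acot10 and Acot9 at 20595250: gtcgtgagcatatgAccaccaatgtcttt
A search of the genome on both strands for the 21 bases centred on each position found 1 further copy with G at the centre for 20595389 and 1 for 20595218, both in Acot9, and none with G for the other 7. A match of 31 bases gave the same copies. In these tables Acot9 is listed with 3 intronic adenosines, none of which had a read. The same held for the other 7 acyl-CoA thioesterase or related genes that the tables list, whose positions are all intronic: over these 8 genes with Acot9, 27 positions had 0 reads in all 48 libraries. Reads of spliced Acot9 RNA therefore have no listed position of their own. The tables hold counts per base and not reads, so what part of the G reads at 20595389 and 20595218 came from Acot9 was not tested.

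Both positions at which Acot9 carries G had high apparent levels, and the positions at which it carries A did not. Over all 48 libraries, 4582 of 21921 reads carried G at 20595389, or 20.9% (95% Wilson interval 20.4% to 21.4%), and 4458 of 22493 at 20595218, or 19.8% (19.3% to 20.3%). Intervals of reads cover counting error only, since amplified reads without molecular identifiers are not independent molecules. In libraries with over 100 reads, the minimum coverage of the study, the level at 20595389 ran from 0% to 88.8% with a median of 25.4% over 30 libraries, and at 20595218 from 0.228% to 72.1% with a median of 22.7% over 29 libraries. Each position thus covered most of the possible range.

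Of the 7 positions with A in Acot9, 4 had over 100 reads in 31 or 32 libraries. They are 20595212 (lysine, synonymous), 20595244, 20595250 and 20595258 (glutamate to glycine if edited), at 6 to 40 bases from 20595218. Over all reads they stood at 0.285%, 0.0658%, 0.413% and 0.232% G. Together they gave 125 values in libraries with over 100 reads, from 0% to 2.02% with a median of 0.184%. Of these values 51 were 0 and 5 were above the 1% limit that the study set for an edited site. The highest, 2.02% at 20595250, came from E861A heart replicate 3, with 23 of 1141 reads (1.35% to 3.01%), while the other E861A heart replicates had 0.234% and 0.518% and the covered WT heart replicates 0.11% and 0%. The remaining 3 positions, 20595265, 20595267 and 20595281, had at most 31, 3 and 1 reads in any library and are not used further.

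**Figure D1:**
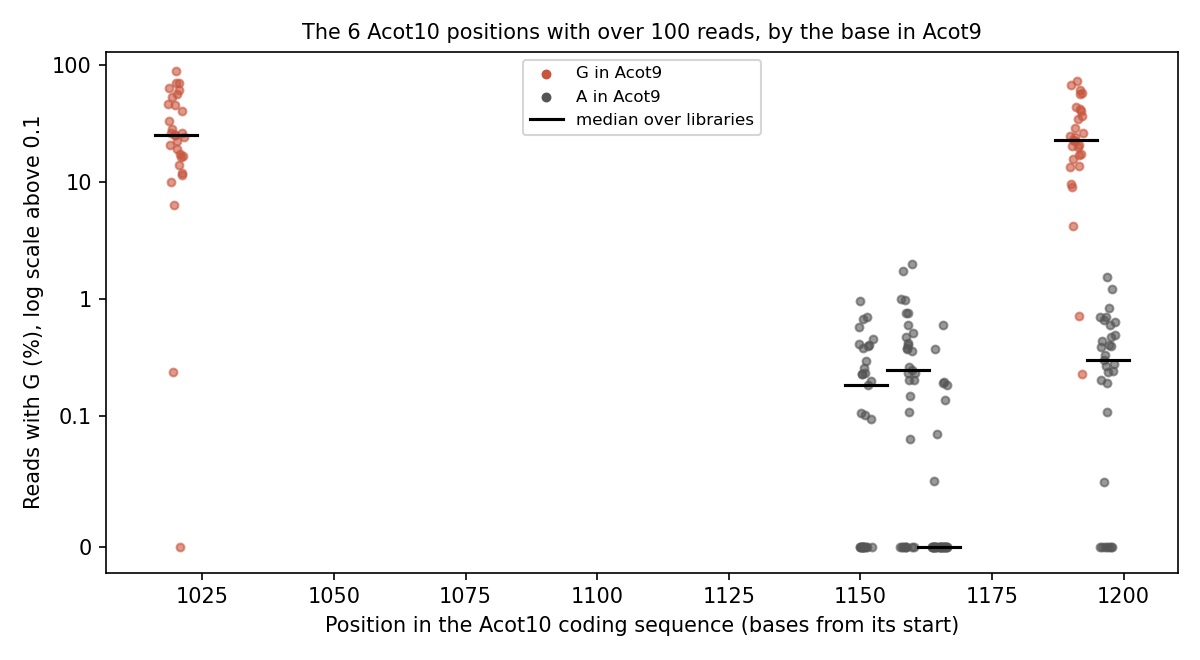
Percentage of reads with G at the 6 Acot10 positions with over 100 reads, plotted against their position in the coding sequence; each point is a library with over 100 reads, black bars are medians over libraries and the axis is logarithmic above 0.1%. The 2 positions with G in Acot9 have medians of 25.4% and 22.7%, and the 4 with A in Acot9 lie at or below 2.02%.

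In 27 of the 29 libraries with over 100 reads at both, 20595389 and 20595218 each stood above all covered positions with A in Acot9. The exceptions were from small intestine. In WT small intestine replicate 2, 20595389 stood at 0.237% and 20595218 at 0.726%, with 0.376% at the highest of the other positions. In E861A small intestine replicate 1 they stood at 0% and 0.228%, with 0.282% at the highest of the others.

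The 2 positions moved together across libraries. Over the 29 libraries Pearson's r was 0.98 and Spearman's rho 0.98, each with a permutation p of 1e-05, the smallest that 100000 resamples can give, and 1.5e-05 after Benjamini-Hochberg adjustment over the 3 relations computed. The correlation was 0.996 over the 14 WT libraries and 0.96 over the 15 E861A libraries. As deviations from the mean of each tissue and genotype, over 26 libraries, r was 0.97 (permutation p within groups 7e-05). Without the 2 libraries farthest from the median it was 0.98, and over the 23 libraries outside spleen, which the choice of the gene did not use, it was also 0.98 (permutation p 1e-05). The points share the library, and both positions may lie on the same amplified fragments. The level was higher at 20595389 in 20 libraries and at 20595218 in 9, with a median difference, sign ignored, of 2.04 percentage points and a largest one of 13.2. In each of the 48 libraries the Wilson intervals of both positions overlapped.

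**Figure D2:**
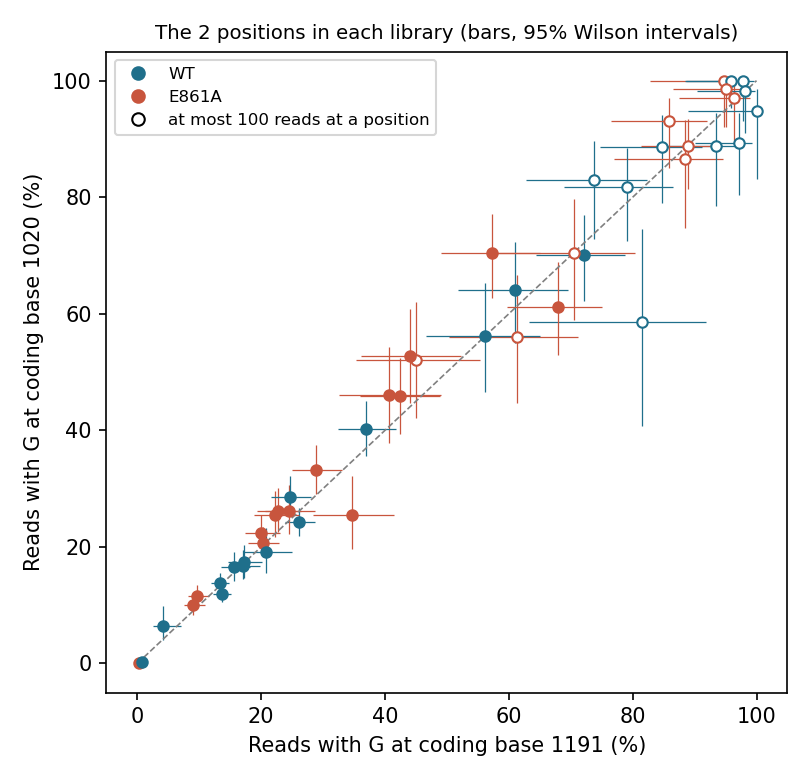
Percentage of reads with G at coding base 1020 (20595389) against coding base 1191 (20595218) in each of the 48 libraries, with 95% Wilson intervals as bars, coloured by genotype; open points had at most 100 reads at one of the positions and the dashed line marks equal levels. The points follow the line, with r of 0.98 over the 29 libraries with over 100 reads at both.

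The level was lower where more reads covered the gene. At 20595389 the 18 libraries with at most 100 reads had levels of 52.1% to 100% (median 89.0%), the 16 libraries with more and up to 500 reads had 6.38% to 88.8% (median 45.9%), and the 14 libraries with over 500 reads had 0% to 28.6% (median 16.6%). The medians at 20595218 in the same order were 89.0%, 41.5% and 17.1%. With coverage scaled to 1000000 reads of the coverage summed over all listed positions of the library (reads per 1000000, RPM), on a log10 scale, the level at 20595389 correlated with coverage at r = -0.84 and rho = -0.83 over 30 libraries (permutation p 1e-05 for both, the smallest possible, and 1.5e-05 adjusted). The correlation was -0.77 over the 14 WT libraries (permutation p 0.0014) and -0.91 over the 16 E861A libraries (permutation p 1e-05). Within tissue and genotype, over 28 libraries, it was -0.84 (permutation p 0.00031). Without the 2 libraries farthest from the median coverage it was -0.86, and over the 24 libraries outside spleen -0.85 (permutation p 1e-05). The reads of the position enter both measures, as the denominator of the level and as the coverage.

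Split by base, reads with A varied far more between libraries than reads with G. At 20595389 the reads with A ran from 0 to 2106, with quartiles of 11 and 484 and a median of 61. The reads with G ran from 0 to 293, with quartiles of 54 and 122 and a median of 74.5. On the scale of log2 of RPM plus 1, the SD over the 48 libraries was 2.54 for A and 0.97 for G. At 20595218 it was 2.55 for A and 0.92 for G, with 0 to 2191 reads with A and 5 to 327 with G. Pearson's r between A and G reads at 20595389 on this scale was 0.24 over the 48 libraries (permutation p 0.097, 0.097 adjusted) and 0.12 without the 2 libraries farthest from the median (permutation p 0.41). Spearman's rho was 0.54 (permutation p 0.00012, 0.00012 adjusted), so the ranks of A and G reads were related while the linear relation was weak. Low levels went with many reads carrying A, and high levels with few.

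**Figure D3:**
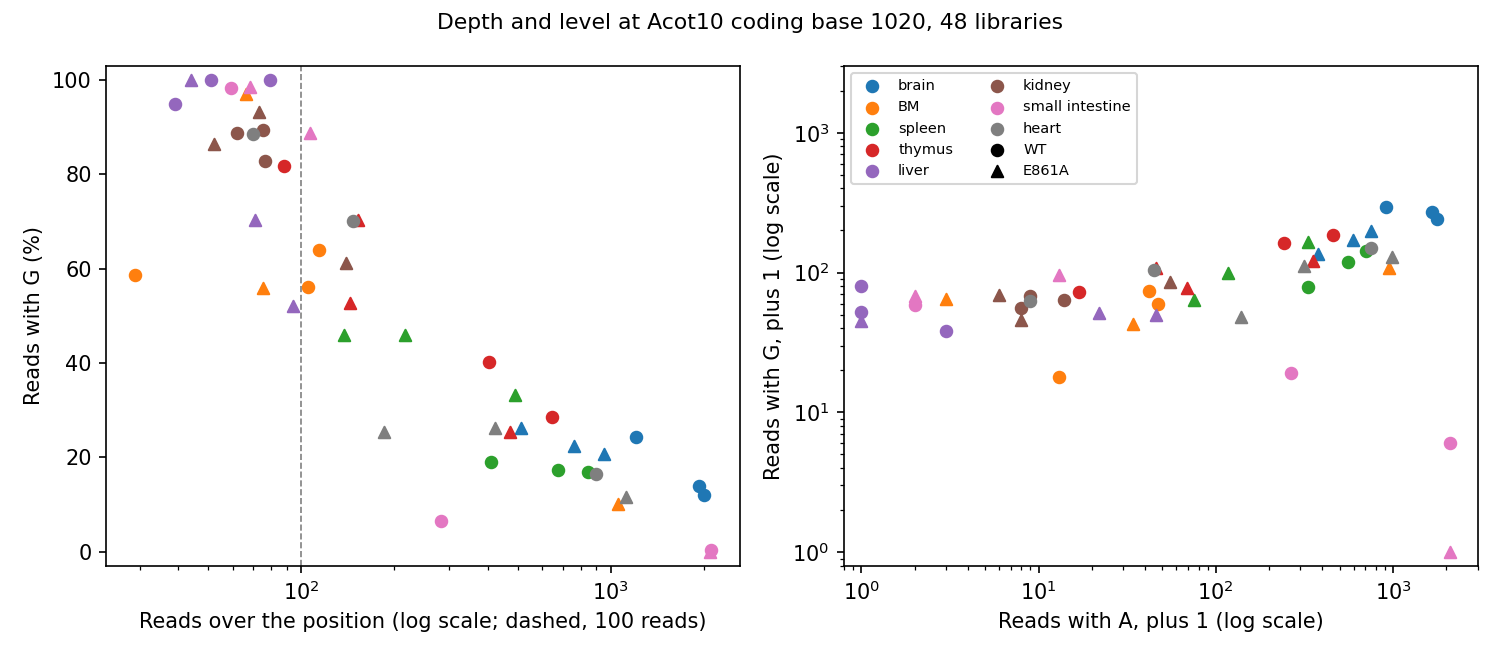
At coding base 1020 (20595389), left, the percentage of reads with G against the reads over the position (log scale), and right, reads with G against reads with A (both plus 1, log scales), for 48 libraries coloured by tissue, with circles for WT and triangles for E861A. The level falls from a median of 89.0% at or below 100 reads to 16.6% above 500 reads, and reads with A span 0 to 2106 while reads with G span 0 to 293.

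Reads over the variable base were also fewer than over its neighbour where the level was high. Position 20595244 lies 26 bases from 20595218 and has A in both genes. In the 23 libraries with a level over 50% at 20595218, this position had 0.667 to 0.93 times the reads of 20595244 (median 0.836), and the ratio was below 1 in all 23. In the 25 libraries at or below 50% the ratio ran from 0.892 to 1.02 (median 0.999) and was below 1 in 13. A split by depth gave a like result. The ratio was below 1 in all 19 libraries with at most 100 reads at 20595218 (median 0.813). It was below 1 in 17 of the 29 with more (median 0.998), so level and depth cannot be separated here. The coverage minimum could also keep one of the variable positions and not the other: E861A small intestine replicate 2 had 100 reads at 20595218, with 89.0% G, and was left out there, and had 107 reads at 20595389, with 88.8% G, and was kept.

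By tissue, the lowest median levels were in brain and the highest in liver. Over the 6 libraries of each tissue, whatever their coverage, the median at 20595389 was 21.5% in brain, 25.8% in heart, 26.1% in spleen, 46.5% in thymus, 47.6% in small intestine, 57.4% in BM, 87.6% in kidney and 97.4% in liver. The ranges of all neighbours in this order overlapped. The order at 20595218 was brain, spleen, heart, thymus, small intestine, BM, kidney and liver, from 20.1% to 95.3%, and again neighbouring ranges overlapped. RPM with G at 20595389 were highest in brain, with a median of 30.6, and ran in the other tissues from medians of 4.85 in small intestine to 13.0 in spleen and thymus. RPM with A had medians of 108 in brain, 39.2 in spleen and 30.5 in heart, of 15.1 in thymus and 14.9 in small intestine, and of 5.97 in BM, 1.04 in kidney and 0.122 in liver. The tissues thus differed more in reads with A than in reads with G. Reads with A also varied within tissues, as in small intestine, where they ran from 0.122 to 226 RPM at 20595389. What these differences reflect was not tested. In tissue samples of this kind, fewer cells that express a gene and less of its RNA per cell cannot be told apart. The brain libraries could be checked for their label by the summed coverage of 10 neuronal transcripts, which was 64112 to 104171 RPM in the 6 brain libraries and 2012 to 25889 in the other 42. Gene by gene the check was weaker, since 7 of the 10 had more reads at their best position in some library outside brain than in the lowest brain library.

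**Figure D4:**
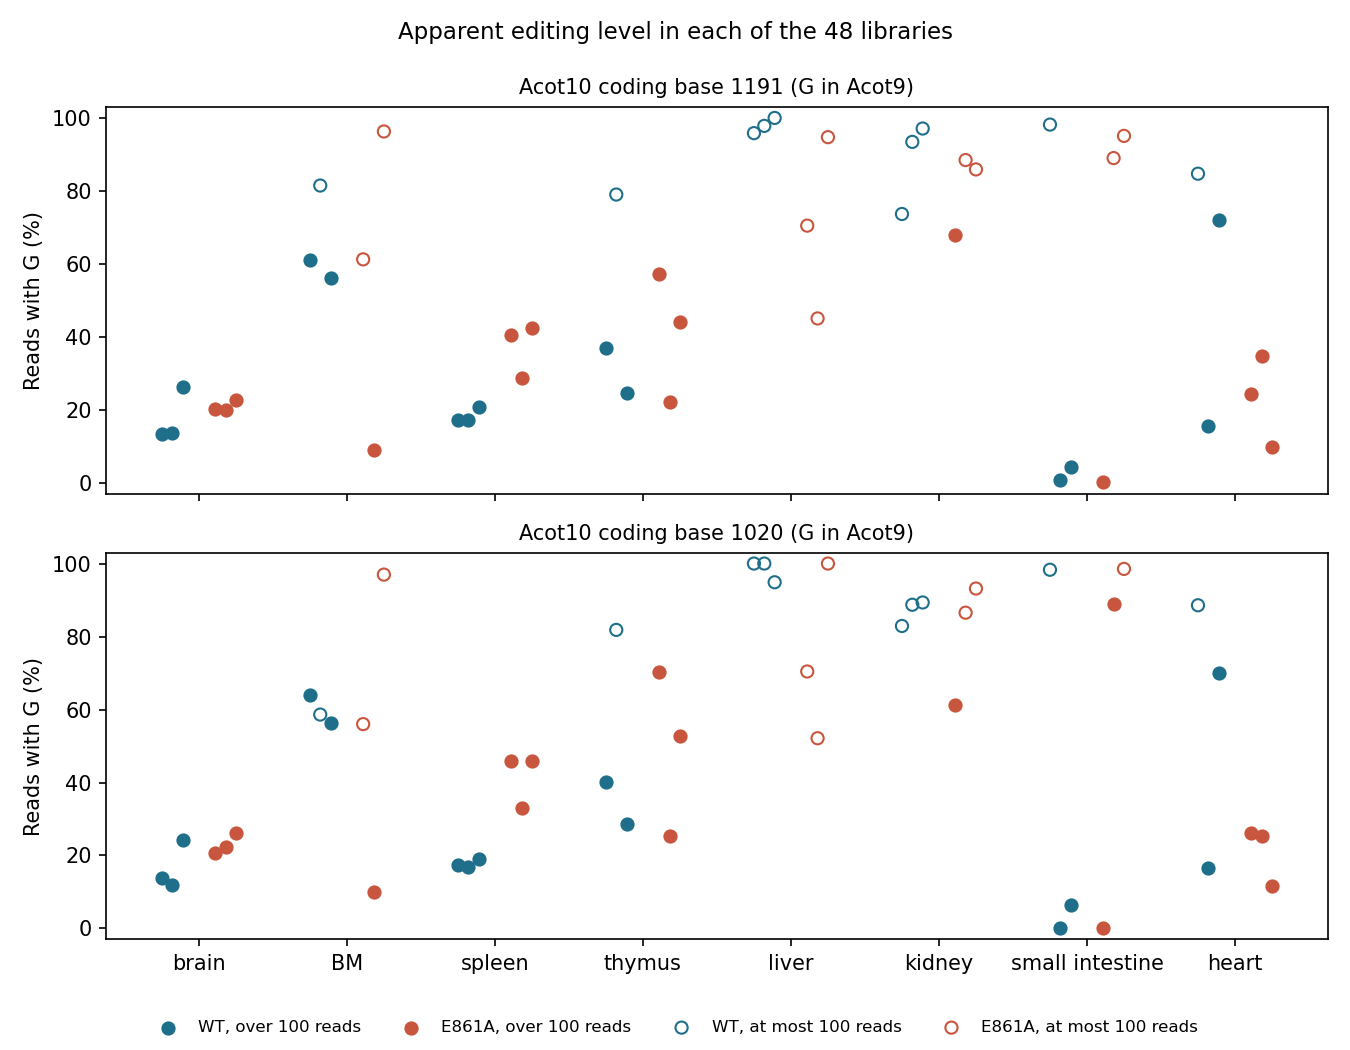
Percentage of reads with G at coding bases 1191 (20595218, above) and 1020 (20595389, below) in each library by tissue and genotype; filled points had over 100 reads, open points at most 100. All liver libraries and 5 of the 6 kidney libraries are open, and within heart and small intestine replicates of one genotype lie far apart.

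In brain, the deepest tissue for Acot10, the level at 20595389 was 13.9%, 11.9% and 24.3% in WT and 20.7%, 22.3% and 26.1% in E861A. The groups overlapped, at means of 16.7% ± 6.62 (SD, n = 3) and 23.0% ± 2.78 (SD, n = 3). At 20595218 the means were 17.7% ± 7.33 (SD, n = 3) and 21.0% ± 1.46 (SD, n = 3). The changes, on the scale of log2 of (level + 0.01) over (1 - level + 0.01), were 0.61 (SE 0.60) and 0.35 (SE 0.60), with limma adjusted p of 0.701 and 0.801. Of the 808 edited sites of brain, 0% passed the threshold of 0.05, 56 had an unadjusted p under 0.05, and neither Acot10 position was among these. The median change over all tested brain sites was -0.12.

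Spleen is where the gene was picked, and its values are a description. The level at 20595389 was 17.4%, 16.8% and 19.1% in WT and 46.0%, 33.1% and 45.8% in E861A. At 20595218 it was 17.2%, 17.1% and 20.8% in WT and 40.6%, 28.8% and 42.3% in E861A. The groups did not overlap at either position. The means were 17.7% ± 1.18 in WT and 41.6% ± 7.38 in E861A at 20595389, and 18.4% ± 2.08 and 37.3% ± 7.35 at 20595218 (SD, n = 3 each). The changes were 1.67 and 1.35, against a median change of -0.90 over the 284 sites tested in spleen. Here 9.15% of the sites passed the limma threshold, and the 0.704% that were higher in E861A are these 2 positions. Among the 260 sites with over 100 reads in all 6 libraries, the groups did not overlap at 28.1%, and all E861A libraries were above all WT libraries at 2.31%. Without a trend of the variance with the mean level in limma, neither of them passed. Their mean levels over all 6 libraries ranked 2 and 3 among the 284 sites, where few sites determine the trend, so no standard error from it is given. A trend also enters the SE and adjusted p given for the other tissues. There no Acot10 position passed in the main fit or in that fit without a trend.

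Split by base, the spleen libraries of the 2 genotypes lay apart in reads with A at 20595389 and mixed in reads with G. At 20595389, WT libraries had 557, 703 and 331 reads with A, against 74, 329 and 117 in E861A. Divided by the summed coverage of the library, this gave 65.9, 74.3 and 41.5 RPM with A for WT, against 8.64, 37.0 and 14.5 for E861A. RPM with G came to 13.8, 15.0 and 9.78 for WT, against 7.35, 18.3 and 12.2 for E861A. In reads with A the closest libraries of the genotypes had 331 and 329 reads. At 20595218 the genotypes overlapped in reads with A, with 332 in WT replicate 3 and 348 in E861A replicate 2. In RPM with A these libraries had 41.6 and 39.1.

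In thymus, WT replicate 2 had 88 reads at 20595389 and was missing from the fit. The covered WT libraries had levels of 40.2% and 28.6% and the E861A libraries 70.4%, 25.4% and 52.8%, so the genotypes overlapped. The uncovered WT library stood at 81.8%, above all others. The change was 0.88 (SE 0.66, limma adjusted p 0.378) at 20595389 and 0.60 (SE 0.59, limma adjusted p 0.412) at 20595218. With libraries of over 50 reads admitted, which brings this WT library in, both changes turned negative, at -0.13 and -0.41. In thymus 0% of 529 edited sites passed and 75 had an unadjusted p under 0.05, with a median change of -1.19 over all of them, and neither Acot10 position was among the 75.

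In heart the level at 20595389 was 16.5% and 70.1% in the covered WT libraries and 26.2%, 25.4% and 11.5% in E861A, with 88.6% of 70 reads in the uncovered WT replicate 1. The change was -1.40 (SE 1.07, limma adjusted p 0.566), and at 20595218 it was -1.35 (SE 1.15, limma adjusted p 0.566). With libraries of over 50 reads admitted, the changes were -2.53 and -2.32, and in a quasi-binomial model of the reads -0.67 at both, none of which passed. Position 20595250 was tested in heart alone, because its pooled level of 1.42% in E861A exceeded 1%, and changed by 0.77 (SE 0.72, limma adjusted p 0.566). Of 446 edited heart sites 0% passed and 21 had an unadjusted p under 0.05, none of them in Acot10, and the median change over all was -0.83.

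Small intestine held both extremes. At 20595389 the WT libraries had 58 of 59, 5 of 2111 and 18 of 282 reads with G, and the E861A libraries 0 of 2103, 95 of 107 and 67 of 68. The levels were thus 98.3%, 0.237% and 6.38% in WT and 0%, 88.8% and 98.5% in E861A. The 2 libraries at or near 0%, of which 1 was WT and 1 E861A, had the highest coverage of Acot10 outside brain and the fewest reads with G at this position of all 48 libraries. The count of 0 of 2103 allows a share of up to 0.143%, taken as 3 counts of the total, and the upper Wilson bound is 0.182%. From the 2 covered libraries per genotype the change was 3.12 (SE 3.46, limma adjusted p 0.568). Of 413 edited sites 0% passed and 2 had an unadjusted p under 0.05, neither in Acot10, and the median change was -1.04.

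BM, liver and kidney could not be compared, since no Acot10 position had over 100 reads in at least 2 replicates of both genotypes. In BM, 20595389 stood at 64.0%, 58.6% and 56.2% in WT, with 114, 29 and 105 reads, and at 56.0%, 10.1% and 97.0% in E861A, with 75, 1053 and 66 reads. In liver it stood at 100%, 100% and 94.9% in WT and 70.4%, 52.1% and 100% in E861A, on 39 to 94 reads. In kidney it stood at 82.9%, 88.7% and 89.3% in WT and 61.2%, 86.5% and 93.2% in E861A, on 52 to 139 reads. At this position the genotypes overlapped in all these tissues. At 20595218 they overlapped in BM and kidney but not in liver. There it stood at 95.8%, 97.8% and 100% in WT and 70.5%, 45.1% and 94.7% in E861A, on 31 to 91 reads. This difference was not tested.

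Elsewhere in the tables the loss of ADAR1 activity left little editing outside brain. Among sites with a WT mean above 5%, Acot10 left out, the median site kept 60.7% of its WT level in E861A brain, 2.33% in spleen, 1.39% in thymus, 1.69% in heart, 1.19% in BM, 2.12% in liver, 4.52% in kidney and 0.879% in small intestine. The E861A level was at or above that of WT at 26.0% of such sites in brain, 1.89% in spleen, 0% in thymus, 4.72% in heart, 2.28% in BM, 9.06% in liver, 2.59% in kidney and 2% in small intestine. Outside spleen, the E861A mean of both Acot10 positions was above the WT mean in brain and thymus and below it in heart, and in small intestine it was above at 20595389 and below at 20595218, where only 1 E861A library was covered. Of these differences, that of 20595218 in small intestine could not be tested and the others did not pass. By mean level over the covered E861A libraries of BM and thymus, with spleen left out, 20595389 ranked 1, at 39.7%, and 20595218 ranked 3, at 33.1%, among 6666 positions, each from 4 libraries. The 4 covered positions with A in Acot9 stood between 316 and 5662, at 0.533% or less.

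Tests over tissues were limited by coverage. In the fit over brain, spleen, thymus and heart (24 libraries), 33.5% of 990 sites differed between tissues. None of the 3 Acot10 positions tested did, with limma adjusted p of 0.165 at 20595389, 0.368 at 20595218 and 0.918 at 20595250. With libraries of over 20 reads admitted, all 8 tissues could be fitted, and 20595389 and 20595218 then differed between tissues (limma adjusted p 0.014 and 0.0113), as did 33.8% of 1142 sites, while 20595250 did not pass (limma adjusted p 0.436). The change with genotype did not differ significantly between brain, thymus and heart at any of the 3 positions (limma adjusted p 0.572 to 0.738), against 1.47% of 951 sites that passed. Over the 7 tissues other than spleen with over 20 reads the limma adjusted p lay between 0.849 and 0.885, against 4.04% of 1115 sites.

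Coverage of Acot10, taken at 20595389 where it is the denominator of the level, did not pass a test between genotypes in any of the 8 tissues. The spleen value is not independent of the levels on which the gene was chosen. The exact two-sided permutation test of 3 libraries against 3 cannot give a p below 0.1. In log2 RPM at 20595389, E861A minus WT was -1.15 in brain and -1.32 in spleen (exact p 0.2 in both, 0.8 adjusted over 8 tissues), 1.10 in heart (exact p 0.5, 0.96 adjusted), and between -0.49 and 0.46 in the other 5 tissues (exact p 0.5 to 1). At this position the genotypes overlapped in all 8 tissues. In brain the WT libraries had 139.8 to 278 RPM and the E861A libraries 73.5 to 139.8. At other positions the brain genotypes lay just apart. The lowest WT and highest E861A library had 144.6 and 142.3 RPM at 20595218, and 142.5 and 138.9 RPM at 20595212. Coverage at these positions was not tested.

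A G copy elsewhere was common among the surveyed positions. Of the 7339 positions with over 100 reads in at least 1 library, 19.6% had the same 21 bases elsewhere in the genome with G at the centre. In E861A BM, spleen and thymus, 1.35% of the 1332 such positions outside Acot10 had a mean level above 1%, against 0.942% of the 5415 without such a copy. Genes other than Acot10 with a high mean level at such a position included the non-coding uc012aji.1 (36.8%, 56 G copies), Iqgap1 (18.7%, 1 G copy), uc009jwk.1 (3.30%, 36 G copies) and Samd8 (2.56%, 2 G copies). These positions lie in a non-coding transcript or in 3′ UTRs (Iqgap1, uc009jwk.1, Samd8), whereas both Acot10 positions are coding. Counting the position itself, the 21 bases with A occurred 230 (uc012aji.1), 23 (Iqgap1), 940 (uc009jwk.1) and 18 (Samd8) times in the genome. Copies with A thus outnumbered those with G at these genes, while at both Acot10 positions each occurred 1 time. Iqgap1 encodes a scaffold protein of the actin cytoskeleton.

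Few sites followed the pattern of Acot10 across groups. Over the 11 groups of tissue and genotype in which 20595389 had at least 2 covered libraries, its group means correlated at r = 0.99 with those of 20595218, over 10 groups. Among 112 sites outside Acot10 that were covered in all 16 groups and above 1% in at least 8, the median correlation was -0.24. The 5 genes most like it had sites in 3′ UTRs, Iqgap1 (r = 0.67), Mdc1 (0.47), Slc35e1 (0.39), Dcaf10 (0.37) and C330018D20Rik (0.35). The Iqgap1 site, at 87857177 on chromosome 7, is 3 bases from the Iqgap1 position above and ranged only from 0.696% to 2.39% in these groups. Without the spleen groups the correlation between the Acot10 positions was 0.99 over 8 groups, the median over the 112 sites was -0.24, and Iqgap1 (0.73) and Mdc1 (0.55) again came first.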

How the data were processed

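The authors amplified loci with known sites by mmPCR-seq. Per the submitters' processing notes, STAR, SAMtools and build mm9 were used, with versions not given in the sources used here. For each library the deposited table gives, per position, the coverage and the edited reads, both counts, and their ratio, a fraction. The summed coverage was 1861831 to 11394093 per library. Tables of the whole series hold the same levels with values at or below 100 reads left blank, and were not used.

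Levels were recomputed as edited reads over coverage. Following the methods of the study, a site was tested where 2 or more of the 3 libraries of each genotype had over 100 reads and the pooled level of either exceeded 0.01. limma 3.58.1 (R 4.3.3; lmFit, eBayes with a trend) was run on log2((level + 0.01)/(1 - level + 0.01)) over all edited sites of a tissue, and p-values adjusted by the method of Benjamini and Hochberg were called below 0.05. The fits were also run on simulated data. The same spread between libraries was drawn there for every site, so this does not test the trend at the Acot10 positions. Correlations used permutation tests of 100000 resamples, and coverage exact permutation tests (Python 3.11.15, scipy 1.17.1, pandas 2.3.3). Wilson intervals are at 95%. Acot10 and Acot9 were aligned by their annotated coding sequences (GENCODE models on NCBIM37, Biopython 1.88), and windows of 21 bases were searched in the genome. The fits over tissues were planned for all 16 groups. As Acot10 was not covered in all of these, they were restricted to the tissues in which it was, and the comparison of patterns to 11 groups.

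Positions are named as follows: all Acot10 positions, listed thioesterase genes, the 5 genes most like Acot10 over groups, and the 5 with the highest level at a position with a G copy elsewhere, of which 1 is not reported here. The members and lists were chosen with earlier results of these data known. The limma p-values and the exact p-values of coverage set differences against the spread between libraries of the same group. The correlation p-values permuted over all libraries also carry differences between tissues and genotypes, and treat libraries as independent. Only those permuted within tissue and genotype leave these differences out.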

Additional observations from a re-analysis of the deposited data

Results flagged for a closer look

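Libraries at or below 100 reads do not enter the main comparisons of level between genotypes. Their share of reads with G at 20595389 was high in the tissues where Acot10 could not be compared. The 3 WT liver libraries together had 98.8% G (95% Wilson interval 95.8% to 99.7%) and the 3 E861A liver libraries 68.4% (61.8% to 74.3% on 209 reads). The 3 WT kidney libraries together had 86.9% (81.7% to 90.7% on 213 reads) and the 2 E861A kidney libraries at or below 100 reads 90.4% (84.0% to 94.4% on 125 reads). In BM the single such WT library had 58.6% (17 of 29, 40.7% to 74.5%) and the 2 E861A libraries 75.2% (106 of 141, 67.4% to 81.6%). These shares pool reads over libraries, and the genotypes were not tested against each other.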

How the results depend on the processing

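The 29 results were recomputed under 358 alternatives in all, of which 327 were classed as unchanged. For changes of level and correlations this means the same direction and side of the threshold. For coverage it means the same direction alone, and for counts of positions the same count. Results that passed in neither setting are among the 327. The spleen count of 2 positions fell to 0 with no edited limit (adjusted p 0.232 at 20595389 and 0.42 at 20595218), with eBayes without a trend (0.135 and 0.215), with a quasi-binomial model of the reads (0.0795 and 0.159), with all 48 libraries in the fit (0.36 and 0.161) and with the replicate block without a trend, which was added after the data were seen. It was 2 without each single library in turn. With over 50 reads the thymus changes reversed, to -0.13 at 20595389 and -0.41 at 20595218. With the quasi-binomial model the thymus changes were 0.40 and 0.23 and that of 20595250 in heart 3.94, none of which passed. Replicate numbers did not pair the samples, since over 24 pairs of same-numbered WT and E861A libraries the correlation of deviations from the group means was -0.12 to 0.24, above 0.1 in 2. With the replicate number as a block, the thymus count rose from 0 to 2. Since WT replicate 2 was missing, 1 residual degree of freedom remained and the variance was taken from the trend. With the replicate block without a trend it was 0, and the small intestine count rose to 1, with a change of 9.23, where no residual degree of freedom remained. The block left the counts of brain, spleen, small intestine, heart and the fits over tissues unchanged. The number of positions that differed between tissues rose to 2 with over 20 reads in all tissues, also added after the data were seen.

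Leaving out 1 library at a time turned the sign of the coverage difference, given as its lowest and highest value, in BM (-0.83 to 1.19), thymus (-1.04 to 0.40), kidney (-0.0199 to 0.67) and small intestine (-1.91 to 0.80), in none of which it passed a test. In BM it turned without E861A replicate 2, in thymus without WT replicate 3, E861A replicate 1 or E861A replicate 3, in kidney without E861A replicate 1, and in small intestine without WT replicate 2, E861A replicate 2 or E861A replicate 3. In heart the coverage difference ran from 0.30, without WT replicate 1, to 2.08, without WT replicate 2, in liver from 0.0768 to 0.65, in brain from -1.47 to -0.94 and in spleen from -1.79 to -0.89. The changes of level with genotype, none of which passed outside spleen, kept their sign and ran at 20595218 from 0.16 (without WT replicate 1) to 0.73 (without WT replicate 3) in brain, from 0.12 (without E861A replicate 1) to 1.20 (without E861A replicate 2) in thymus and from -1.83 (without E861A replicate 2) to -0.73 (without E861A replicate 3) in heart. At 20595389, leaving out the same brain library, WT replicate 3, gave 0.96, the lowest brain value was 0.37 without WT replicate 2, thymus ran from 0.25 to 1.62 without the same 2 libraries, and heart from -1.64 to -0.95. Where leaving out a library left fewer than 2 covered replicates of a genotype, as in thymus, heart and small intestine, no value could be given.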
